A study of Homo sapiens with 6 samples.

Results

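The canonical histone genes encode the linker histone H1 and the core histones H2A, H2B, H3 and H4, and most of them lie in clusters of near-identical copies. Members were taken by symbol: names beginning HIST1H to HIST4H, or in current naming H1- with a number, or H2AC, H2BC, H3C or H4C with a number. This gave 66 of the 18132 genes that had a probe set of their own, read by 112 of 49372 probe sets: 10 H1, 15 H2A, 19 H2B, 10 H3 and 12 H4 genes. The name rule also took genes that are not canonical in the strict sense, the replication-independent linker histone H1-10, the germ-cell linkers H1-7 and H1-8, and 2 transcribed pseudogenes, H1-9P and H2BC20P. The antisense gene H1-10-AS1 was left out. For 8 more histone genes (H2AC18, H2AC19, H3C13, H3C14, H3C15, H4C11, H4C14 and H4C15) the array has only probe sets that match several genes, and these are described by probe set.

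The arrays came from A549, an established human lung adenocarcinoma line. The groups were 3 knockdown arrays from cells in which the long noncoding RNA LINC00525 was silenced, and 3 control arrays from cells given a scrambled negative control. Both groups share 1 growth protocol in serum-containing medium, and no time after treatment is given in the labels. The titles mark both groups "sh" while the treatment text speaks of siRNA, and the genotype fields of knockdown replicates 2 and 3 read LINC00526 and LINC00527. The labels do not say whether replicates were separate cultures, so the spread behind each p-value is that between these arrays and could be technical.

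Replication needs a new set of histones for each daughter genome, and cells meet this need by transcribing the histone clusters almost only in S phase. The transcripts of replication-dependent histone genes are unusual among mRNAs: they end in a conserved stem-loop bound by SLBP instead of a poly(A) tail. Some members, among them H2BC5, H2BC12, H2BC21, H2AC6 and H1-2, are known to make polyadenylated transcripts as well. The amplification kit named in the labels starts from an oligo(dT) primer, so the signals described here are those of tailed or internally primed transcripts, and the share of stem-loop transcripts in them was not measured. A bulk signal also cannot tell apart fewer cells in S phase from less histone RNA in each such cell.

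Promoters of the genes that turned out lower on knockdown arrays are shown first, because they carry short elements that recur across the family and that the name rule did not use. The RefSeq promoter table (GRCh38.p14) held 59 of the 66 genes, with 250 bases before and 50 after each start. Each line below gives the bases just before the start, 5′ to 3′ on the gene's own strand. Capitals mark matches on either strand to CCAAT, to the TATA-box letters TATAAA, to the octamer ATTTGCAT known as an OCT1 binding element of H2B promoters, and to AAACACA, the H1 box. The H2BC11 window is also the upstream region of H2AC11, which is read from the opposite strand.
H2BC11, chr6:27132796-27132995, minus strand: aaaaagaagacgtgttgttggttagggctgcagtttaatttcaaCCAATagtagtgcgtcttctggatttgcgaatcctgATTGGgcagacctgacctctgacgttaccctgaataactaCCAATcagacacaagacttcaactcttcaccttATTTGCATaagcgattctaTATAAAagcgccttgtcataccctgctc
H2BC12, chr6:27146859-27147008, minus strand: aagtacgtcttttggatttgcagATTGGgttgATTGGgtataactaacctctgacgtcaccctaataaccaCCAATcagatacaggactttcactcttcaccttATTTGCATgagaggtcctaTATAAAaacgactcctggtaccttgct
H2BC15, chr6:27838419-27838568, plus strand: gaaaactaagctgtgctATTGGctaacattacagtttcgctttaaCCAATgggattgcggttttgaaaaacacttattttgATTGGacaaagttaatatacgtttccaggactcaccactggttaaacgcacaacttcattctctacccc
H2AC17, chr6:27893186-27893335, minus strand: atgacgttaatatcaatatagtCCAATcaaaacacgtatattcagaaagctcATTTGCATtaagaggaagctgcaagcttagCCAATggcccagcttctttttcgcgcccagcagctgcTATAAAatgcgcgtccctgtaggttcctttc
H1-3, chr6:26234988-26235137, minus strand: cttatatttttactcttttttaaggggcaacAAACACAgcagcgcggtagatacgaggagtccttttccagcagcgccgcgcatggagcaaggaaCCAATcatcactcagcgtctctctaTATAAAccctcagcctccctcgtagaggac
H1-4, chr6:26156179-26156328, plus strand: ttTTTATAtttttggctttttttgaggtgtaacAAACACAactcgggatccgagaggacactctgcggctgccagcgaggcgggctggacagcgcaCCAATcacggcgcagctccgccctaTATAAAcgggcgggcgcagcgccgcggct
H3C10, chr6:27809901-27810050, plus strand: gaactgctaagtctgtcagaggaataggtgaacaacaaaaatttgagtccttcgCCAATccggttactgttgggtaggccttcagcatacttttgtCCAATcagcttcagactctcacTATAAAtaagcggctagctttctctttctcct
A TATAAA match began 27 to 32 bases before the start in 6 of these 7 windows, and H2BC15 had none. The octamer stood 47, 46 and 98 bases before the start of H2BC11, H2BC12 and H2AC17. The H1 box stood 119 and 117 bases before the start of H1-3 and H1-4, the linker genes. Over the whole 300-base windows, the octamer was found in 14 of 18 H2B and 11 of 14 H2A promoters (77.8% and 78.6%), against 1.8% of all 27305 promoters. It was found in 0 of 9 H1 and 0 of 10 H4 promoters. TATAAA was found in 37 of 59 histone promoters (62.7%), against 12% of all promoters, and CCAAT in 51 of 59 (86.4%), against 35.7%. The H1 box was found in 7 of 9 H1 promoters, against 5.76% of all promoters. No match overlapped a match to another of these motifs. Genes that passed the test and genes that did not both carried these elements: the octamer was in 4 of the 8 that fell and in 22 of the other 51.

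Histone genes were either slightly lower on knockdown arrays or not distinguishable between the groups. Of 66 genes 8 fell, 0 rose and 58 did not pass the test (limma, adjusted p under 0.05 over all 18132 genes). At an unadjusted p under 0.05 the counts were 22 lower and 3 higher, against 2805 lower and 2009 higher among all 18132 genes. The 8 are 12.1% of the family, where 12.6% of all genes passed, 6.83% as falls and 5.77% as rises. Leaving out 1 array gave fewer: 1 histone gene fell without knockdown replicate 2 or control replicate 3, 3 without control replicate 2, and 4 without any 1 of the other arrays. These counts include genes outside the 8: H4C5 without knockdown replicate 1, H2AC13 without knockdown replicate 3 and H2AC20 without control replicate 2 (limma adjusted p = 0.0132, 0.0268 and 0.0347). The 8 were the linker genes H1-4 and H1-3, the H2B genes H2BC11, H2BC15 and H2BC12, the H2A genes H2AC11 and H2AC17, and the H3 gene H3C10. The falls were small, from 0.19 to 0.39 on the log2 scale, or 1.14-fold to 1.31-fold. The median log2 change was -0.07 over the 66 genes and -0.01 over all genes. Below 0 lay 47 of the 66 genes and above it 18, against 9991 and 7887 of all 18132 genes. In 19 of the 66 genes (28.8%) all knockdown arrays lay below all control arrays, against 17.9% of all genes, and in 3 all knockdown arrays lay above, against 12.9% of all genes. The median deviation from the control mean was -0.06, -0.09 and -0.08 over the 66 genes on knockdown replicates 1, 2 and 3, and 0, -0.0233 and -0.02 over all genes on the same arrays. All values are relative to the typical gene of an array. Spiked hybridization controls of bacterial sequence were brighter on knockdown arrays, by 0.28 log2 units, and poly-A spikes by 0.14. Scaled to these 2 kinds of control, the median of all genes moved to -0.29 and -0.15, and 62 and 43 histone genes passed as lower. So did 15085 and 8397 of all 18132 genes, so these counts mostly follow the shift of the whole array.

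**Figure D1:**
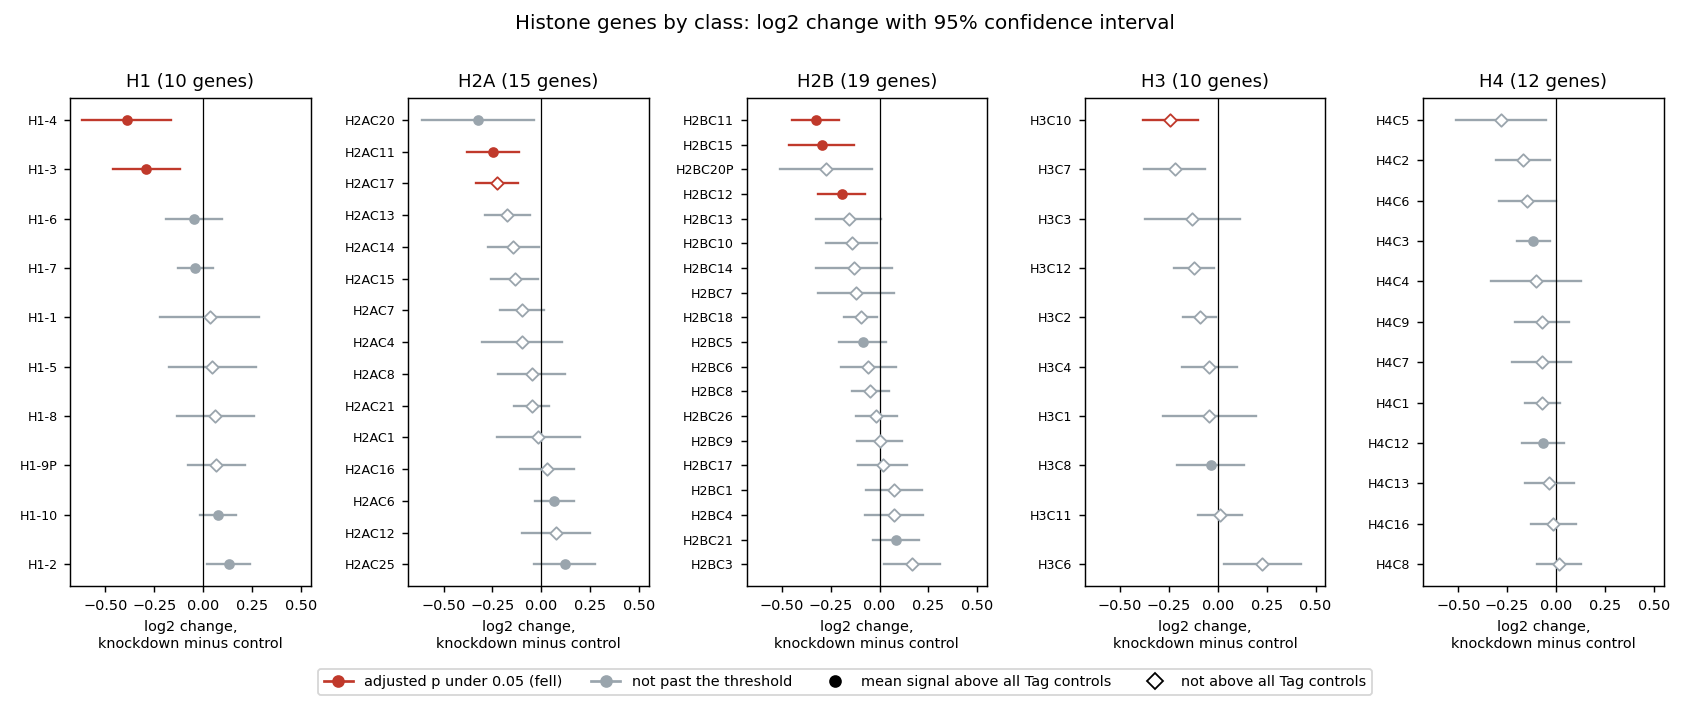
Log2 change (knockdown minus control, horizontal axis) of the 66 histone genes by class, with 95% confidence intervals from the limma fit on 3 knockdown and 3 control arrays. Red marks the 8 genes that fell, and filled circles mark the 18 genes whose mean signal lay above all 17 Tag controls, probe sets with no human target. Most genes of H2A, H2B, H3 and H4 lie left of 0, and H1 is split between 2 falls and 6 genes above 0.

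Linker histones, which bind DNA at the entry and exit of the nucleosome, held 2 of the 8 falls, and 0 rose. H1-4 fell and gave the lowest log2 change of the family. Its log2 signal was 4.70, 4.67 and 4.58 on knockdown arrays, against 5.12, 4.80 and 5.20 on control arrays. The groups did not overlap, but control replicate 2 lay close to the knockdown arrays. The fitted change was -0.39 ± 0.098 (SE, limma adjusted p = 0.0403). H1-3 had 7.02, 6.82 and 7.04 on knockdown arrays, against 7.18, 7.21 and 7.36 on control arrays, a change of -0.29 ± 0.073 (adjusted p = 0.0404), again without overlap. H1-2, the linker gene with known polyadenylated transcripts, went the other way without passing, at its only set, which can bind related transcripts (suffix _x_at). It had 7.55, 7.58 and 7.56 on knockdown arrays, against 7.36, 7.43 and 7.51 on control arrays (0.13 ± 0.047, adjusted p = 0.119). H1-10, a linker made outside S phase, was at 9.31 ± 0.030 on knockdown and 9.23 ± 0.040 on control arrays (SD, n = 3 each; limma adjusted p = 0.273). The dimmer H1-10 set went the other way, at -0.11 with all knockdown arrays below all control arrays (limma adjusted p = 0.331 over all probe sets). The other 6 linker genes had log2 changes of -0.05 to 0.07 and did not pass. Among them H1-5, usually an abundant linker in dividing cells, was at 3.49 on knockdown and 3.44 on control arrays, within the range of probe sets with no human target. The median over the 10 linker genes was 0.04. Of these, H1-1, H1-5, H1-8 and H1-9P lay within the Tag range, and H1-6 and H1-7 lay just above it. The median therefore rests largely on genes near background. The H1-3 call was lost on leaving out any array (limma adjusted p of 0.0554 to 0.118), and that of H1-4 on leaving out any but control replicate 2 (0.0769 to 0.123).

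H2A and H2B genes, whose products pair as a dimer in the nucleosome, held 5 of the 8 falls. Of 19 H2B genes 3 fell and 0 rose (1 higher at an unadjusted p under 0.05), and of 15 H2A genes 2 fell and 0 rose (limma, 0 higher at an unadjusted p under 0.05). H2BC11 had the lowest p of the family. Its log2 signal was 4.62, 4.59 and 4.56 on knockdown arrays, against 4.87, 5.02 and 4.86 on control arrays. The groups did not overlap. The change was -0.33 ± 0.052 (SE, limma adjusted p = 0.00745), and it passed whichever array was left out (0.02 to 0.03). The probe set behind it carries the suffix _s_at, which marks sets that match several transcripts. The other 2 sets of H2BC11 gave changes of -0.08 and -0.06 at mean signals of 2.67 and 3.02, and neither passed.

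H2BC15 was at 5.76, 5.69 and 5.88 on knockdown arrays, against 5.96, 6.19 and 6.07 on control arrays. It fell by 0.30 ± 0.071 on the log2 scale (SE, limma adjusted p = 0.0338), and its only probe set is also an _s_at set. H2BC12, an H2B gene with known polyadenylated transcripts, had 9.20, 9.22 and 9.26 on knockdown arrays, against 9.36, 9.52 and 9.38 on control arrays. Its groups were separate, by less than the spread among control arrays. The change of -0.19 ± 0.051 just passed (adjusted p = 0.0482), and the call was lost on leaving out any array (limma adjusted p of 0.0639 to 0.126). Its second probe set lay at 0.01. H2BC5, another H2B gene with polyadenylated transcripts, gave -0.09, -0.12 and -0.14 at its 3 probe sets, none past the threshold. H2BC21, of the chromosome 1 cluster, was at 5.84, 5.70 and 5.72 on knockdown arrays, against 5.67, 5.62 and 5.72 on control arrays, with overlap. For H2BC3 the change was 0.17 (adjusted p = 0.134) at a mean signal of 2.32, and for the pseudogene H2BC20P it was -0.27 (limma adjusted p = 0.133). The H2BC15 call was lost without knockdown replicate 1 or 2 or control replicate 2 or 3 (0.0896 to 0.106).

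Among H2A genes, H2AC11 was at 5.33, 5.18 and 5.22 on knockdown arrays, against 5.41, 5.56 and 5.50 on control arrays. It fell by 0.25 ± 0.056 on the log2 scale (SE, limma adjusted p = 0.029), and its other set gave -0.09 without passing. H2AC17 had 4.25, 4.15 and 4.28 on knockdown arrays, against 4.44, 4.43 and 4.49 on control arrays, a change of -0.23 ± 0.046 (adjusted p = 0.0193). Its second set, without the _x_at suffix of the first, gave -0.19 (limma adjusted p = 0.0728 over all probe sets). H2AC20, of the chromosome 1 cluster, had a change of -0.32 ± 0.12 that did not pass (limma adjusted p = 0.138). It was at 8.45, 8.63 and 8.60 on knockdown arrays, against 9.14, 8.61 and 8.90 on control arrays. Control replicate 2 lay among the knockdown arrays, and without it the adjusted p was 0.0347. H2AC13 was at -0.17 (limma adjusted p = 0.0642), H2AC6 at 0.07, H2AC12 at 0.08 and H2AC25 at 0.12, none past the threshold. The H2AC11 call was lost without knockdown replicate 2 or 3 or control replicate 2 or 3 (limma adjusted p of 0.0813 to 0.101). That of H2AC17 was lost without knockdown replicate 2 or any control array (0.0557 to 0.0691).

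**Figure D2:**
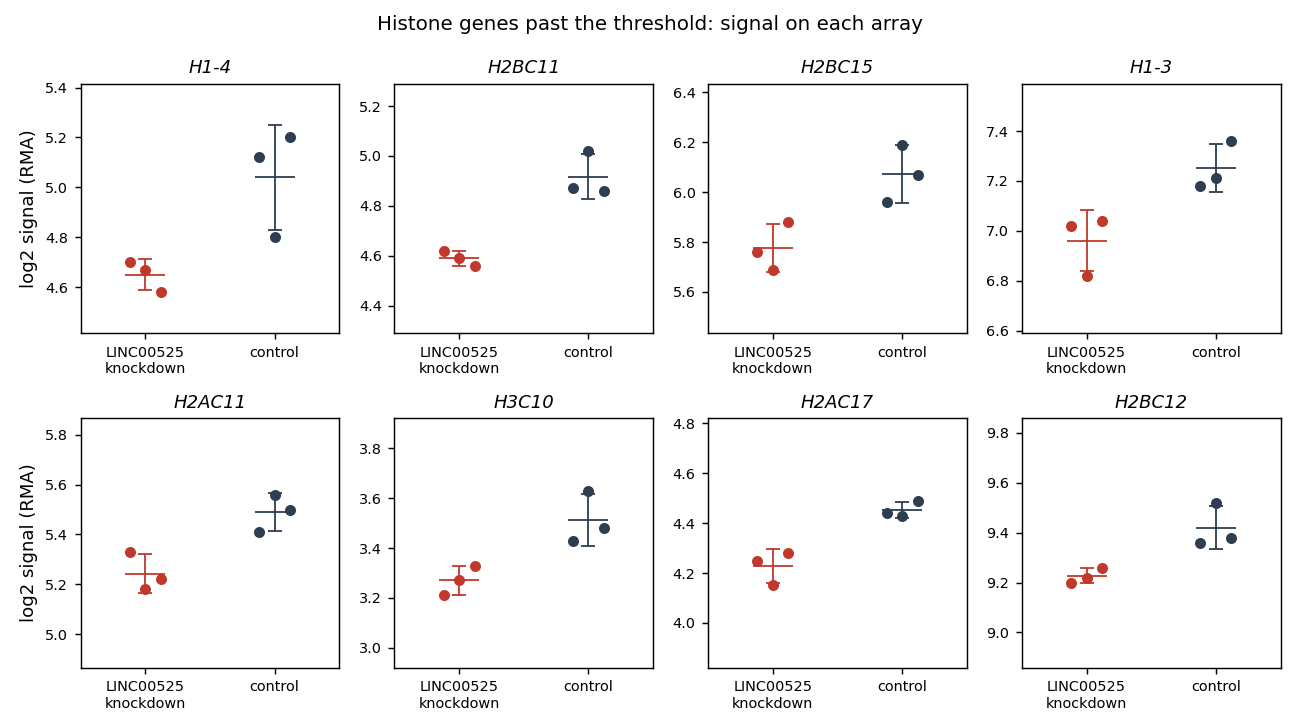
Log2 signal (RMA, vertical axis, 1 log2 unit in every panel) of the 8 genes that fell, 1 point per array, with mean and SD (n = 3). Knockdown arrays lie below control arrays in every panel, and in H1-4 control replicate 2, at 4.80, lies well below the other control arrays.

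H2A and H2B genes are often placed head to head, with 1 short region between their starts serving both. The RefSeq windows held 11 such pairs, 194 to 248 bases apart. In 6 pairs both genes had a negative change, in 1 pair both fell, and in 2 pairs only 1 gene passed. In the whole family 47 of 66 genes lay below 0, so no link within pairs is read from these counts. The pair with both calls was H2AC11 and H2BC11, whose starts are 248 bases apart. H2BC15 fell by 0.30 while its partner H2AC15, read from the other strand, was at -0.14 without passing (limma adjusted p = 0.143). H2AC17 fell by 0.23, and its partner H2BC17 was at 0.02 (adjusted p = 0.881) at a mean signal of 3.11. H2AC20 was at -0.32 and its partner H2BC21 at 0.08, neither past the threshold. Differences within a pair were not tested. Across the 11 pairs the changes of the H2A and H2B genes had a correlation of 0.30, given as a description: all points share the same 6 arrays, and most lie near background.

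**Figure D3:**
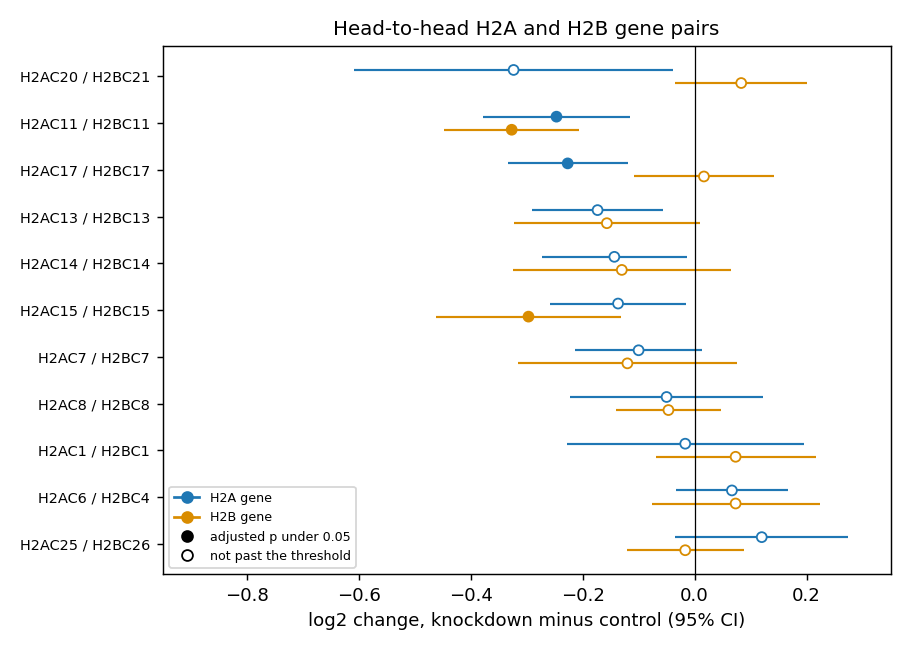
Log2 change (knockdown minus control) with 95% confidence interval of the 11 head-to-head pairs, the H2A gene in blue and the H2B gene in orange, with filled points for adjusted p under 0.05. Only the H2AC11 and H2BC11 pair has both points filled.

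Core histones H3 and H4, which form the tetramer at the centre of the nucleosome, held 1 fall. H3C10 was at 3.21, 3.27 and 3.33 on knockdown arrays, against 3.43, 3.63 and 3.48 on control arrays. It fell by 0.24 ± 0.061 on the log2 scale (SE, limma adjusted p = 0.0386) at a signal as low as that of the Tag controls. Leaving out any array but control replicate 1 lost the call (limma adjusted p of 0.0572 to 0.108). H3C7 lay at -0.22 and -0.24 at its 2 sets, neither past the threshold (limma adjusted p = 0.0751 for the first in the gene fit). H3C6 had the highest change of the family, 0.23 ± 0.085 (adjusted p = 0.134), also near background. H3C8, at 6.20, 5.95 and 5.95 on knockdown arrays against 6.14, 6.06 and 6.01 on control arrays, overlapped (-0.04 ± 0.074), and H3C4 was at -0.04.

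Of 12 H4 genes 0 fell and 0 rose (limma, 4 lower and 0 higher at an unadjusted p under 0.05). Of the 12 changes 11 were negative, where 9991 of all 18132 genes lay below 0. H4C3 was the only H4 gene that combined a strong signal with separate groups. Its 2 sets carry the suffixes _x_at and _s_at, so which H4 copies they read is uncertain. H4C3 had 12.01, 11.96 and 12 on knockdown arrays, against 12.09, 12.10 and 12.13 on control arrays. The change of -0.12 ± 0.037 did not pass (limma adjusted p = 0.0819), nor did -0.18 at its second set (0.0517 over all probe sets). H4C5 was at -0.28 (adjusted p = 0.117), H4C2 at -0.17 (limma adjusted p = 0.118) and H4C12 at -0.07. A set shared by H4C14 and H4C15, which encode the same protein, did fall. It was at 6.35, 6.45 and 6.52 on knockdown arrays, against 6.75, 6.76 and 6.64 on control arrays (-0.28 ± 0.058, limma adjusted p = 0.0241 over all probe sets). The 2 sets shared by H2AC18 and H2AC19 were at -0.02 and 0.08 with mean knockdown signals of 8.90 and 8.27, and the other 6 shared sets lay between -0.12 and 0.10. None of those 8 passed.

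Signal strength set how much of the family could be read. On these arrays 17 Tag probe sets match no human transcript, and their mean log2 signals ran from 2.26 to 4.65 with a median of 2.79. Only 18 of the 66 histone genes lay above all of them in the mean over the 6 arrays, among them H1-4, H1-3, H2BC11, H2BC15, H2BC12 and H2AC11. That mean holds both groups: H2BC11 was above the limit on control arrays (4.92) and below it on knockdown arrays (4.59), and H1-4 averaged 4.65 on knockdown arrays, at the limit. No share of falls is therefore read from the 18. The genes just above that limit were H1-6 at 4.67, H1-7 at 4.70, H2BC11 at 4.75 and H1-4 at 4.84, and the nearest below was H2BC20P at 4.61. H2AC17 and H3C10 fell at signals within the Tag range, as 2 of the other 48 genes. The mean signal of these 48 did not exceed that of the brightest Tag control, so a change in them may not be detectable. That limit is strict, since the 95th percentile of the Tag controls was 3.90. Some of the 48, among them H2AC17 and H2BC20P, had only 1 Tag control above them.

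Probe sets of 1 gene differed in what they read. All sets had changes of 1 sign in 22 of the 32 genes with several sets. At the level of probe sets 7 of 112 fell and 0 rose (limma, adjusted over all 49372 sets, of which 5.25% fell and 4.64% rose). These 7 belong to the genes named above, all but H2BC12. Sets with the suffix _s_at or _x_at, which can bind related transcripts, stood for 27 genes, of which 4 fell, and for 4 of the 8 genes that fell: H2BC11, H2BC15, H2AC17 and H3C10. Of the genes named above that did not pass, H1-2, H2AC12, H2BC3 and H4C3 were read by an _x_at set. H1-10, H2AC6, H2AC13, H2AC15, H2AC25, H2BC17, H3C6 and H3C8 were read by an _s_at set. Which copy such a set reads is uncertain. All 8 lie on chromosome 6, which holds 54 of the 66 genes (median change -0.08), while 0 of the 7 on chromosome 1 passed (median -0.05).

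**Figure D4:**
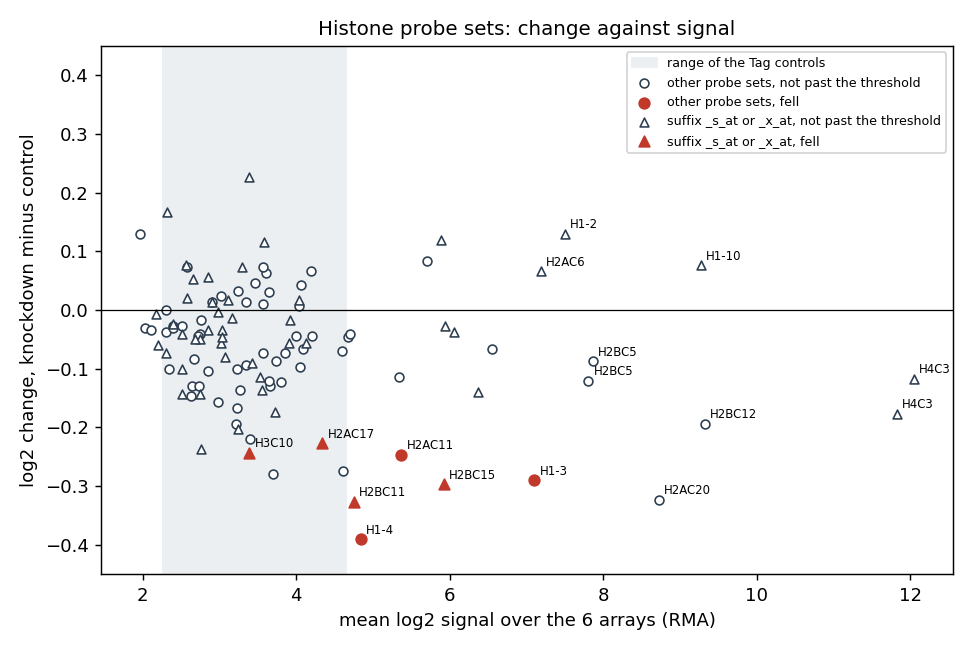
Log2 change (knockdown minus control) against mean log2 signal over the 6 arrays for the 112 histone probe sets, with the range of the 17 Tag controls shaded. Triangles carry the suffix _s_at or _x_at, and red marks the 7 sets that fell, 2 of which lie inside the shaded range.

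Genes that act on histone genes, their mRNA and their proteins gave falls and no rises in each of 4 lists, where 6.83% of all genes fell. Among all genes above the Tag controls, where most of the listed genes lie, 10.3% fell. The lists were chosen with earlier results of these data known. Of 11 measured genes of the histone locus body and of the G1/S drivers that switch it on, 6 fell and 0 rose (limma, 0 higher at an unadjusted p under 0.05; median log2 change -0.20). NPAT, the coactivator that cyclin E and CDK2 phosphorylate to start histone transcription, was at 5.85, 6 and 6.04 on knockdown arrays, against 6.21, 6.32 and 6.29 on control arrays. It fell by 0.31 ± 0.059 (SE, limma adjusted p = 0.0152), a call lost without control replicate 2 or 3 (0.0579 and 0.0627), and its other sets gave -0.06 and -0.13. CASP8AP2, the FLASH protein of the locus body, fell by 0.29 ± 0.044 and passed whichever array was left out. CCNE2, the S-phase cyclin E2, was at 4.77, 4.83 and 4.98 on knockdown arrays, against 5.46, 5.45 and 5.83 on control arrays (-0.72 ± 0.11). The CDK phosphatase CDC25A fell by 0.33, E2F1 by 0.22 and the Cajal body protein COIL by 0.20. CCNE1 and CDK2 were at -0.10 and -0.11, and HINFP, the activator of H4 genes, at -0.13, none past the threshold. The call of E2F1 was lost without any 1 control array, and that of COIL without knockdown replicate 1 or 3 or control replicate 1 or 2. The other sets of COIL and CDC25A were negative and did not pass.

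Processing factors of histone mRNA gave 6 falls and 0 rises among 17 genes (limma; 1 higher at an unadjusted p under 0.05; median -0.11). Besides CASP8AP2, which both lists hold, these were SRRT and NCBP1, which act with the cap-binding complex, LSM10 of the U7 particle that guides the cut, the endonuclease CPSF3, and UPF1, which takes part in histone mRNA decay. Their changes ran from -0.21 to -0.19, and the other sets of LSM10, NCBP1 and UPF1 did not pass. SLBP, the stem-loop binding protein, was at -0.15 ± 0.041 and did not pass (limma adjusted p = 0.0537), and its other set was at -0.02. LSM11, the other U7-specific protein, was at 0.09 at its brightest set and at -0.13 and 0.15 at dimmer sets, none past the threshold. MIF4GD, which links SLBP to translation, was at 0.10 without passing. Of the 6 falls only that of CASP8AP2 passed whichever array was left out, and 1 to 5 of the list passed.

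Chaperones and deposition factors gave 7 falls and 0 rises among 22 genes (limma, 0 higher at an unadjusted p under 0.05; median -0.12). MCM2, the helicase subunit that also carries parental H3 and H4, was at 7.62, 7.62 and 7.76 on knockdown arrays, against 8.05, 8.04 and 8.03 on control arrays. It fell by 0.37 ± 0.048 (SE, limma adjusted p = 0.00312), and its other sets gave -0.19, -0.49 and -0.54. ASF1B, the proliferation-linked H3-H4 chaperone, fell by 0.30, and CHAF1A and CHAF1B, subunits of the assembly factor CAF-1, fell by 0.27 and 0.23. HJURP, the chaperone of centromeric CENPA, fell by 0.21, UBN1 of the HIRA complex by 0.16 and the acetyltransferase HAT1, which marks new H4, by 0.14. MCM2, ASF1B and CHAF1A passed whichever array was left out, and the other 4 did not. HIRA, DAXX and ATRX, which deposit the replacement histone H3.3 outside S phase, were at -0.06, -0.04 and -0.04 at their brightest sets without passing. The other HIRA set was at -0.28, with all knockdown arrays below all control arrays (limma adjusted p = 0.0753 over all probe sets). The other sets of ATRX ran from -0.27 to 0.04, and those of DAXX were at -0.09 and -0.02, none past the threshold. The choice of probe set mattered in both directions. NASP, an H3-H4 chaperone not counted as a fall, was at -0.05 at its brightest set and fell by 0.29 at the other (limma adjusted p = 0.00419 over all probe sets), and NAP1L1 and NAP1L4 also had dimmer sets that fell. The sets of NAP1L1 differed in direction. Those that fell were at -0.24 and -0.16. Others, also dimmer than its brightest set, were at 0.15 and 0.21. At both of these all knockdown arrays lay above all control arrays, and neither passed. CHAF1B and UBN1, counted as falls, were at -0.05 and 0.08 at their other set.

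**Figure D5:**
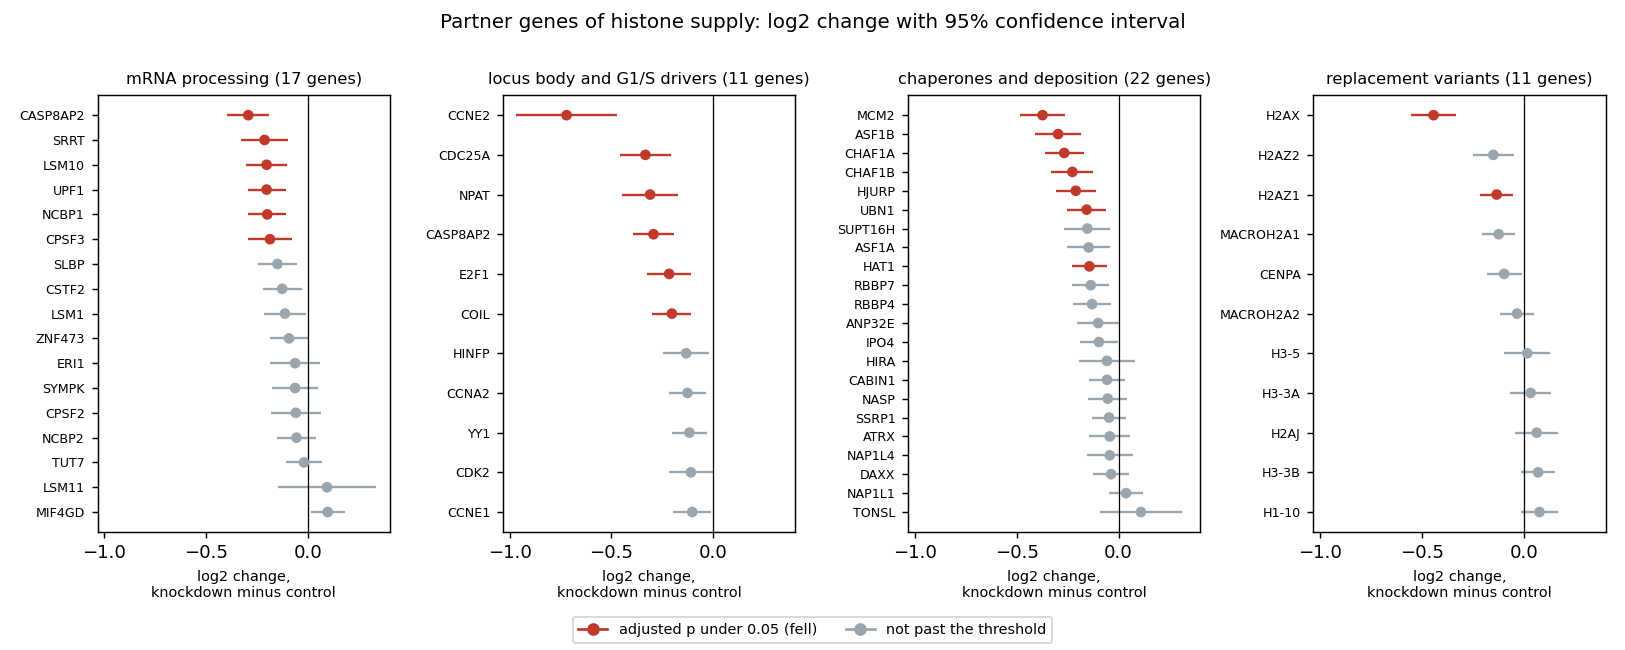
Log2 change (knockdown minus control) with 95% confidence interval of genes for histone mRNA processing, locus body and G1/S drivers, chaperones and deposition, and replacement variants, with red for adjusted p under 0.05. The falls run from 0.13 for H2AZ1 to 0.72 for CCNE2, and no gene rose.

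Replacement variants, histones made from polyadenylated mRNA through much of the cell cycle, gave 2 falls and 0 rises among 11 measured genes (limma, 0 higher at an unadjusted p under 0.05; median -0.03). Among them H3-3A and H3-5, at mean signals of 2.20 and 1.80, lay below all Tag controls, and H2AJ, at 4.38, lay within their range. Their changes were 0.03, 0.02 and 0.06, so the median rests partly on genes that could not be read. H2AX, the variant phosphorylated at DNA breaks and 1 whose mRNA exists in both stem-loop and polyadenylated forms, had a larger fall than any of the 66 family members. It was at 10.11, 10.08 and 10.21 on knockdown arrays, against 10.61, 10.59 and 10.53 on control arrays. The change was -0.44 ± 0.047 (SE, limma adjusted p = 0.00138), it passed whichever array was left out, and H2AX has 1 probe set. H2AZ1 fell by 0.13, a call lost on leaving out any array (limma adjusted p of 0.0889 to 0.141). H2AZ2 was at -0.15 at its brightest set (adjusted p = 0.0657), and its other 4 sets all fell, by 0.41, 0.20, 0.22 and 0.23 (limma adjusted p of 0.0149 to 0.0277 over all probe sets). The centromeric CENPA was at -0.10 at its brightest set, fell by 0.28 and 0.24 at the next 2 (0.0128 and 0.0285 over all probe sets) and was at -0.14 at the last. H3-3B, which encodes H3.3, was at 0.07, and none of its 4 sets passed. H1-10 is counted here and in the family.

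LINC00525, the silenced transcript, was at 3.67, 3.45 and 3.54 on knockdown arrays, against 3.86, 3.74 and 3.97 on control arrays (-0.30 ± 0.075 SE, limma adjusted p = 0.0372), within the Tag range. The correlation over all probe sets was 0.9983 or more between replicates and 0.9963 or less across the groups. All 7 lung epithelial markers checked lay above the Tag controls over the 6 arrays: KRT18, KRT8, KRT19 and CDH1 at 12.4, 11.9, 9.42 and 8.50, and SFTPC, EPCAM and NKX2-1 lower, at 5.95, 5.30 and 5.13. KRT19 rose by 0.29 (limma adjusted p = 0.00409) and KRT8 fell by 0.15 (limma adjusted p = 0.0474), and the other 5 did not pass. The leukocyte markers PTPRC and CD3E, the endothelial VWF and the fibroblast COL1A1 and COL3A1, at 2.38 to 4.60, were not above all Tag controls. The endothelial PECAM1 was just above, at 4.74. CD68, a macrophage lysosomal protein that other cells also make, was at 7.04 ± 0.070 on knockdown and 6.43 ± 0.067 on control arrays (SD, n = 3 each; limma adjusted p = 0.000465). CDKN1A, the inhibitor of CDK2 known as p21, was at 10.00, 10.09 and 10.18 on knockdown arrays, against 9.56, 9.57 and 9.48 on control arrays. The interferon-induced MX1 was at 8.38, 8.20 and 8.37 on knockdown arrays, against 3.62, 3.38 and 3.12 on control arrays. The part of these differences in the histone values was not tested.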

How the data were processed

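The deposited table holds log2 signals of 49372 probe sets on 6 arrays; the authors made these log2 values with RMA, per the submitters' processing notes, with the software version not given in the sources used here. Array medians were 5.10 to 5.11, so nothing was normalized again. Biotin-labelled cRNA was made from 100 ng total RNA, per the labels. No scanner files were used. Probe sets with 1 symbol (44994) were named through the platform annotation, symbols were updated by gene identifier, and the set with the highest mean over the 6 arrays stood for a gene (18132 genes); 1832 sets had several symbols and 2546 had none.

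Knockdown was set against control in limma 3.58.1 under R 4.3.3 (lmFit and eBayes, 2-sided, no covariate), adjusted by Benjamini-Hochberg over all genes or all probe sets, with 0.05 as the threshold. Figures used matplotlib 3.10.9. The fit was tested on simulated independent arrays with known changes, which checks the calculation and says nothing about how independent these replicates were. The number of arrays limits the precision. The members and the 4 partner lists were chosen with earlier results of these data known. Named were all histone genes past the threshold, the 2 of highest mean per class, the 5 largest further changes each way, and partner genes past the threshold; other genes were named after their values were seen. POU2F1 and H2BU1, listed among partners, had no probe set of their own. Alternatives covered the probe set rule, low signals, scaling, moderation, a replicate block and leaving out each array.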

Additional observations from a re-analysis of the deposited data

How the results depend on the processing

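The number of histone genes called was 8, and its size depended on most settings, while every call but the single rises named here was a fall. It was 3 with only probe sets without _s_at or _x_at, 5 after cyclic loess, 62 and 43 when scaled to the hybridization and the poly-A controls (whose signals were higher on knockdown arrays by 0.28 and 0.14), 0 without variance moderation (where 1314 of all genes passed) and 1 to 4 when 1 array was left out. With the sets of a gene averaged 8 fell and H2BC3 rose, and with a variance trend 10 fell and H1-2 rose. Of the 8 falls, 6 were kept by averaging and 7 by the low-signal filter. The median change was -0.0578 with averaged sets, -0.0521 after cyclic loess, -0.3498 and -0.2093 under the 2 scalings, and -0.0767 to -0.0617 with 1 array left out. Histone probe sets called numbered 7, against 4 after cyclic loess, 12 with a variance trend and 1 to 4 with 1 array left out. With 1 array left out, 1 to 5 processing genes, 3 to 6 locus body and G1/S genes, 3 to 4 chaperones and 1 to 2 replacement variants were called. Replacement variants called numbered 4 with averaged sets, 1 after cyclic loess and 1 under the replicate block. All genes called numbered 2285 (1239 falls and 1046 rises), 2199 after cyclic loess (909 and 1290), 15317 (15085 and 232) and 8894 (8397 and 497) when scaled to the hybridization and the poly-A controls, 3522 with a variance trend, and 1104 to 1575 with 1 array left out. The replicate block called 5 histone genes (4 fell and H3C6 rose), 3 of the 8 among them. Same-numbered arrays showed little sign of pairing (correlations of deviations 0.09, 0.06 and -0.01). No named histone gene past the threshold changed sign in any setting. The cause of these differences was not tested. Signals at the level of the Tag controls limit 48 of the 66 genes.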
